A study of Mus musculus with 125 samples.

Results

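Open chromatin of heart endothelium was compared between postnatal mice labelled P6 and embryos labelled E12, using 6 ATAC-seq peak lists out of the 66 ATAC-seq samples of the series. The lists are those titled heart endothelial at P6 (replicates 1 and 2) and at E12 (replicates 1 to 4). Each list was reduced to the same number of top peaks by −log10 of the q-value, so that list length did not decide the outcome. The shortest usable list held 38942 peaks, and this number was taken from all 6. Top peaks that overlapped were merged into 72361 regions. A region was called gained when both P6 libraries and none of the 4 E12 libraries had a top peak in it, and lost when all 4 E12 libraries and neither P6 library had one. There were 6870 gained regions, or 9.49% of all regions, and 2308 lost regions, or 3.19%. E12 replicate 3 had a high share of duplicate tags, so the same rules were also applied without it, at 72069 top peaks per list. That gave 112423 regions, of which 13161 (11.7%) were gained and 11236 (9.99%) were lost. These 2 readings are called the 6-library and the 5-library comparison below.

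The series profiles endothelial nuclei and whole-tissue input nuclei of several mouse organs at E12, P6 and 2 months of age. ATAC-seq uses a transposase that cuts accessible DNA, and the peaks mark stretches cut more often than their surroundings. Per the labels' protocol, tamoxifen at 0.015 mg/kg was given at every age, and GFP marked the vessels of the tissues used. Dams were injected at E10.5 for embryos taken at E12.5, and pups at P1 and P3. The protocol text dates the postnatal collection to P7, while the age label is P6, which is kept here as the group name. The allele that drives GFP, the mouse strain and the sex are not given in the sources used here, and how labelled nuclei were separated is not described there. Nothing in the labels says that replicates came from separate litters or animals, so p-values measure the spread between these libraries. In bulk nuclei, a change in the share of one kind of cell and a change of accessibility within each cell cannot be told apart.

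Heart endothelium holds several kinds of cell. Endocardial cells line the chambers and, in the embryo, give rise to the cushions that become valves. Coronary arteries, veins and a dense capillary bed form around the muscle, and the capillary cells take up fatty acids and pass them to cardiomyocytes. Between midgestation and the first week after birth the coronary bed expands greatly and the heart turns from glucose towards fatty acids as fuel. Accessible regions far from gene starts are usually enhancers and differ most between cell types and stages, while accessible starts are shared widely.

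The regions that hold the start of a gene show one contrast between the sets in the sequence itself, so the promoters of the 3 highest-ranked such regions of each set, and of the highest-ranked of each 5-library set, are printed first. They come from RefSeq on assembly GRCm38.p6 (mm10), are 300 bases long with the start in their 3′ part, and are written 5′ to 3′ on the gene's strand. Capitals mark each CpG, the dinucleotide that is methylated in most of the genome and dense in broadly active promoters. The gained starts shown are those of Igf2 (chr7:142666767-142667066, minus strand), which encodes an insulin-like growth factor, Zc3h12c (chr9:52149314-52149613, minus strand), which encodes a zinc finger protein of the regnase family, Cnr2 (chr4:135911430-135911729, plus strand), which encodes a cannabinoid receptor, and, from the 5-library comparison, Dipk2b (chrX:18461348-18461647, minus strand). The lost starts shown are those of Agbl4 (chr4:110397448-110397747, plus strand), which encodes a carboxypeptidase that trims tubulin, Insm2 (chr12:55598667-55598966, plus strand), which encodes a zinc finger protein of the insulinoma-associated family, Arf5 (chr6:28423354-28423653, plus strand), which encodes a small GTPase of vesicle traffic, and, from the 5-library comparison, Fstl5 (chr3:76074311-76074610, plus strand), which encodes a follistatin-like protein.
Igf2, gained: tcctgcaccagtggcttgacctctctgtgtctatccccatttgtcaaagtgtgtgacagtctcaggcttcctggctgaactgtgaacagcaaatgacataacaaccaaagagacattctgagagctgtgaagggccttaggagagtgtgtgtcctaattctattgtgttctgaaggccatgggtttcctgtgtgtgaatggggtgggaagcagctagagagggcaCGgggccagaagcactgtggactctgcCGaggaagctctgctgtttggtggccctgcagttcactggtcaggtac
Zc3h12c, gained: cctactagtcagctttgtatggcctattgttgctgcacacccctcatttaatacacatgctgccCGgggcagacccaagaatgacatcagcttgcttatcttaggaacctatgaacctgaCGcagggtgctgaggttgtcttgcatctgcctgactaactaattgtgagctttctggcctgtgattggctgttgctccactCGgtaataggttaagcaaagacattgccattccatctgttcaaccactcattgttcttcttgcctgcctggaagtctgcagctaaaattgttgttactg
Cnr2, gained: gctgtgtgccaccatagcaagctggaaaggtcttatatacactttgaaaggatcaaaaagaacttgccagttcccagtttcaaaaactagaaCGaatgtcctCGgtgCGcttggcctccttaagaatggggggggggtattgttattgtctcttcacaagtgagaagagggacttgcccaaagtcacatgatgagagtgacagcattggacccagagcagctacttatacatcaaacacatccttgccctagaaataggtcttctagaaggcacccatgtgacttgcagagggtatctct
Dipk2b, gained in the 5-library comparison: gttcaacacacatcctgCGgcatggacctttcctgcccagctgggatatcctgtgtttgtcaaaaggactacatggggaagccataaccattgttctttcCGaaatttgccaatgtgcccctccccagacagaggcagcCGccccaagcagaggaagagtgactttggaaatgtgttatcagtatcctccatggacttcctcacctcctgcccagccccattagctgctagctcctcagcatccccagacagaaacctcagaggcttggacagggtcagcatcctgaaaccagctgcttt
Agbl4, lost: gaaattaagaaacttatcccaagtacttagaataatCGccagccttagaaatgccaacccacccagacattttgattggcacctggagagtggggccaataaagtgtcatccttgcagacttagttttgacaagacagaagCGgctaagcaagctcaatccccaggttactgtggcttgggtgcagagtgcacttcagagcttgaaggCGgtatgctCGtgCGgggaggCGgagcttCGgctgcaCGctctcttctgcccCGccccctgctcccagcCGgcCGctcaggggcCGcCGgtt
Insm2, lost: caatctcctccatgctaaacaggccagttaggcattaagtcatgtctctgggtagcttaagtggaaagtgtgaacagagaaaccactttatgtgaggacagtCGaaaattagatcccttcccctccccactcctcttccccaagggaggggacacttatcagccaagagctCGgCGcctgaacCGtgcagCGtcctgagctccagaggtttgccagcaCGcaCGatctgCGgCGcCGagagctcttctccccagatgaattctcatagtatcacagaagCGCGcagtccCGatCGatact
Arf5, lost: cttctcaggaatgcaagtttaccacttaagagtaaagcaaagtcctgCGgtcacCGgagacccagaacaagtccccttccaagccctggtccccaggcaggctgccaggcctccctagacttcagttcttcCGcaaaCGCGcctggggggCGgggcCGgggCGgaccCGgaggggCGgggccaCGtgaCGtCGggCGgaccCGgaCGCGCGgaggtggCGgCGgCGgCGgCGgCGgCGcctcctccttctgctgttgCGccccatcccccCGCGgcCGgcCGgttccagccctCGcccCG
Fstl5, lost in the 5-library comparison: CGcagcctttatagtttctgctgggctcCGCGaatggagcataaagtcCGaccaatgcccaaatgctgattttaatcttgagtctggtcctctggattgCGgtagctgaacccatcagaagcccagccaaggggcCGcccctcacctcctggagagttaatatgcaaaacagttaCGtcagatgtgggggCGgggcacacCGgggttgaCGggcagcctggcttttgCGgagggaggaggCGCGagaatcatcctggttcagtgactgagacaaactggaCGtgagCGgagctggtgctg

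The gained promoters Igf2, Zc3h12c and Cnr2 hold 2, 3 and 3 CpG, and the lost promoters Agbl4, Insm2 and Arf5 hold 13, 14 and 32. Of the 4 highest-ranked with 5 libraries, the gained ones hold 3, 3, 1 and 5 (Dipk2b first) and the lost ones 15, 14, 9 and 5 (Fstl5 first), so the ranges meet there. The same contrast held over all starts that lay inside a region. The median was 5 CpG per promoter over the 143 promoters (134 genes) in gained regions, with quartiles of 3 and 8. It was 17 over the 312 promoters (283 genes) in lost regions, with quartiles of 10 and 26. Promoters in regions that were top peaks in all 6 libraries had a median of 23, and all 21045 promoters of protein-coding genes in the table had 13. The medians were 4 for gained and 16 for lost with 5 libraries. The region at the Igf2 start (chr7:142666655-142667167) had a −log10 q of 29.33 and 27.43 in the P6 libraries. In E12 replicates 1, 2 and 4 it had 6.02, 3.92 and 2.64, below the top lists, and replicate 3 had no peak. The region at the Agbl4 start (chr4:110397245-110398146) had 37.88, 34.91, 13.04 and 37.11 in E12 replicates 1 to 4 and 2.66 and 5.61 in the P6 libraries. The Fstl5 start had no peak in either P6 library against 30.13, 28.55, 6.16 and 38.36 at E12. All E12 values of Fstl5 and of Agbl4 were above the P6 values, and both P6 values of Igf2 were above the E12 values. These values chose the regions and are given as a description. Where starts were scored by gene, any annotated start counted. Outside this region E12 replicates 1 and 3 had a top peak within 1 kb of a start of Igf2, which need not be the one printed. Igf2 is therefore not among the genes with a top peak at P6 only.

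Short sequence motifs were counted on both strands of the same promoters, as a description of these letters only. The AP-1 motif TGACTCA was in 7.69% of promoters in gained regions (11 of 143), 3.21% in lost regions and 4.69% of all promoters. The FOX-ETS motif AACAGGAA, bound in endothelial enhancers, was in 3.50% (5 of 143), 1.92% and 2.41%. With 5 libraries it was in 7.30% of gained promoters, which is 13 of 178. The ETS motif CCGGAAGT was in 0.699% of gained (1 of 143) and 1.92% of lost promoters. It was in 9.81% of those in regions top-listed in all 6 libraries and 5.198% of all. Its letters include a CpG. The GATA motif AGATAA was in 9.79% (14 of 143), 5.77% and 9.68%, and the E-box CACGTG in 3.50% (5 of 143), 9.94% and 7.91%. Some of these orders changed with 5 libraries. The E-box was then in 5.62% of gained and 6.84% of lost promoters, with lost below all promoters. AP-1 was in 8.43% and 5.26%, with lost above all promoters.

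The peak lists differed in length and depth. The P6 libraries had 76326 and 72110 deposited peaks from 19.3 M and 31.3 M (mega) tags kept after duplicates were dropped. E12 replicates 1, 2 and 4 had 101233, 101219 and 120456 peaks from 25 M, 32.9 M and 33.9 M. E12 replicate 3 had 39096 peaks from 10.1 M kept of 61.3 M tags, a duplicate share of 83.5% against 19.3 to 38.5% in the other 5. Its list enters the 6-library comparison almost whole, down to a −log10 q of 1.01, while the other lists stop at 5.73 to 10.8. Its top peaks cover 17.8 Mb against 25.2 to 30.8 Mb. In the 5-library comparison the P6 lists instead run down to 1.77 and 1.00 while the E12 lists stop at 3.63 to 5.33. Regions gained there can thus rest on weak P6 peaks, and how many do was not counted. The tag size in the headers is 65 bp for P6 replicate 1, 76 bp for E12 replicate 3 and 75 bp for the other 4.

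The labelled cell type was checked on gene starts. Of 18 general endothelial genes, 17 and 17 had a top peak within 1 kb of the start in the P6 libraries and 16, 17, 18 and 15 at E12. At the same number of top peaks, 2 had one in the E12 whole-heart input and 4 and 4 in the P6 inputs. Of 12 cardiomyocyte genes, 4 and 4 had one in the P6 libraries and 2, 2, 1 and 2 at E12, against 11 in each of these 3 inputs. At the 72069 top peaks of the 5-library comparison the counts were 10 and 12 of 12 at P6 and 2, 2 and 3 at E12. In these longer lists the P6 libraries therefore hold nearly the whole cardiomyocyte list and the E12 libraries do not. The P6 lists run down to a −log10 q of 1.77 and 1.00 there and the E12 lists to 3.63 to 5.33, so weaker E12 peaks were not counted. These values stand beside the gene groups below.

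The overlap between the lists was measured as the Jaccard index, the bases shared by a pair of lists divided by the bases in either. The P6 pair had an index of 0.717. The 6 pairs of E12 libraries had 0.516 ± 0.178 (SD), from 0.350 to 0.722, and the 8 pairs of a P6 with an E12 library had 0.435 ± 0.0438. All 5 pairs with E12 replicate 3 lay between 0.350 and 0.371, whichever age the partner had. Pairs of the same age exceeded pairs of different age by 0.109 (exact permutation test over 15 labellings, 2-sided p = 0.133, adjusted p = 0.16 over 6 tests). Without E12 replicate 3 the P6 pair had 0.692, the 3 E12 pairs 0.681 ± 0.0328 and the 6 mixed pairs 0.460 ± 0.0145, with no overlap between same-age and mixed pairs. The difference of 0.224 had an exact permutation p of 0.1, the smallest that 10 labellings allow, while 15 labellings allow 0.0667.

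**Figure D1:**
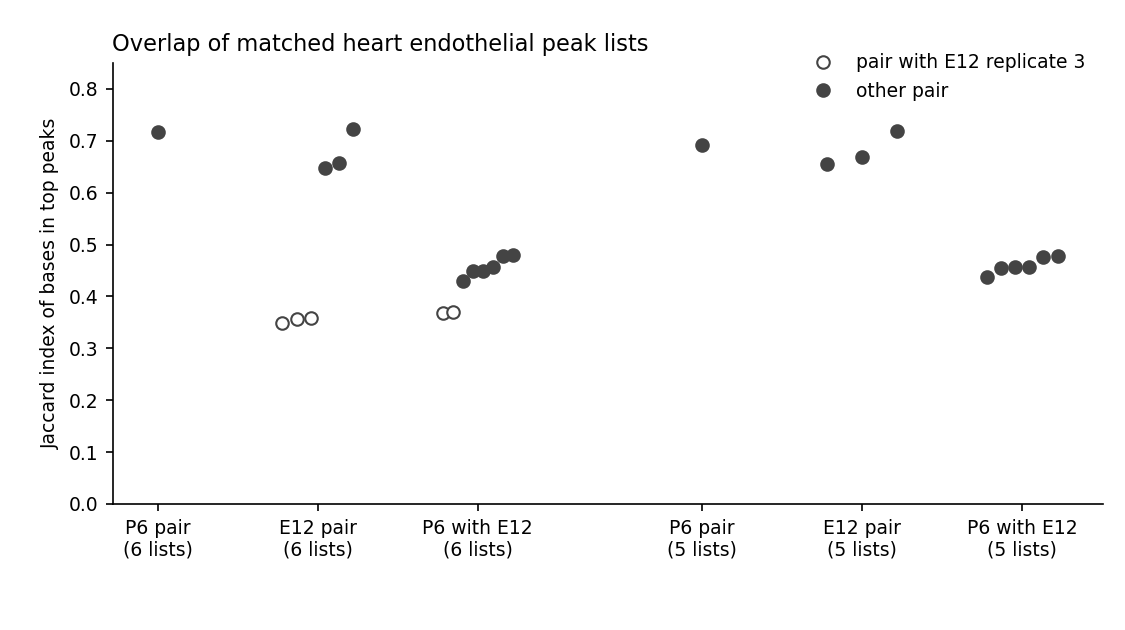
Jaccard index of bases for each pair of matched heart endothelial lists (vertical axis, 1 point per pair), for 6 lists on the left and 5 lists on the right. Open points are pairs with E12 replicate 3, all between 0.350 and 0.371, and the filled same-age points lie above all mixed-age points.

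Gained and lost describe entry into the top lists and do not mean closed and open. Of the 6870 gained regions, 53.65%, 54.4% and 62.65% had a weaker peak in the full lists of E12 replicates 1, 2 and 4. Replicate 3 has no weaker peak in them because its list was used whole. Of the 2308 lost regions, 69.6% had a weaker peak in each of the P6 lists. With no peak of any rank at the other age, 2078 gained and 503 lost regions were left. These numbers were 7425 and 10834 with 5 libraries. There the top lists took all 72069 usable peaks of P6 replicate 2 and 72069 of the 76282 of replicate 1. A region lost there was thus almost by rule without a P6 peak of any rank.

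E12 replicate 3 decided most of the lost set. Of the 6243 regions that the other 3 E12 libraries had and neither P6 library had, replicate 3 held 2308, or 37.0%. The corresponding share was 91.2%, 91.8% and 84.1% for replicates 1, 2 and 4. The gained sets of both comparisons shared 3686 regions, which is 53.65% of the 6-library set and 28.01% of the 5-library set. The lost sets shared 533, which is 23.1% and 4.74%. Values of the lost set below are those of the 6-library comparison unless 5 libraries are named.

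**Figure D2:**
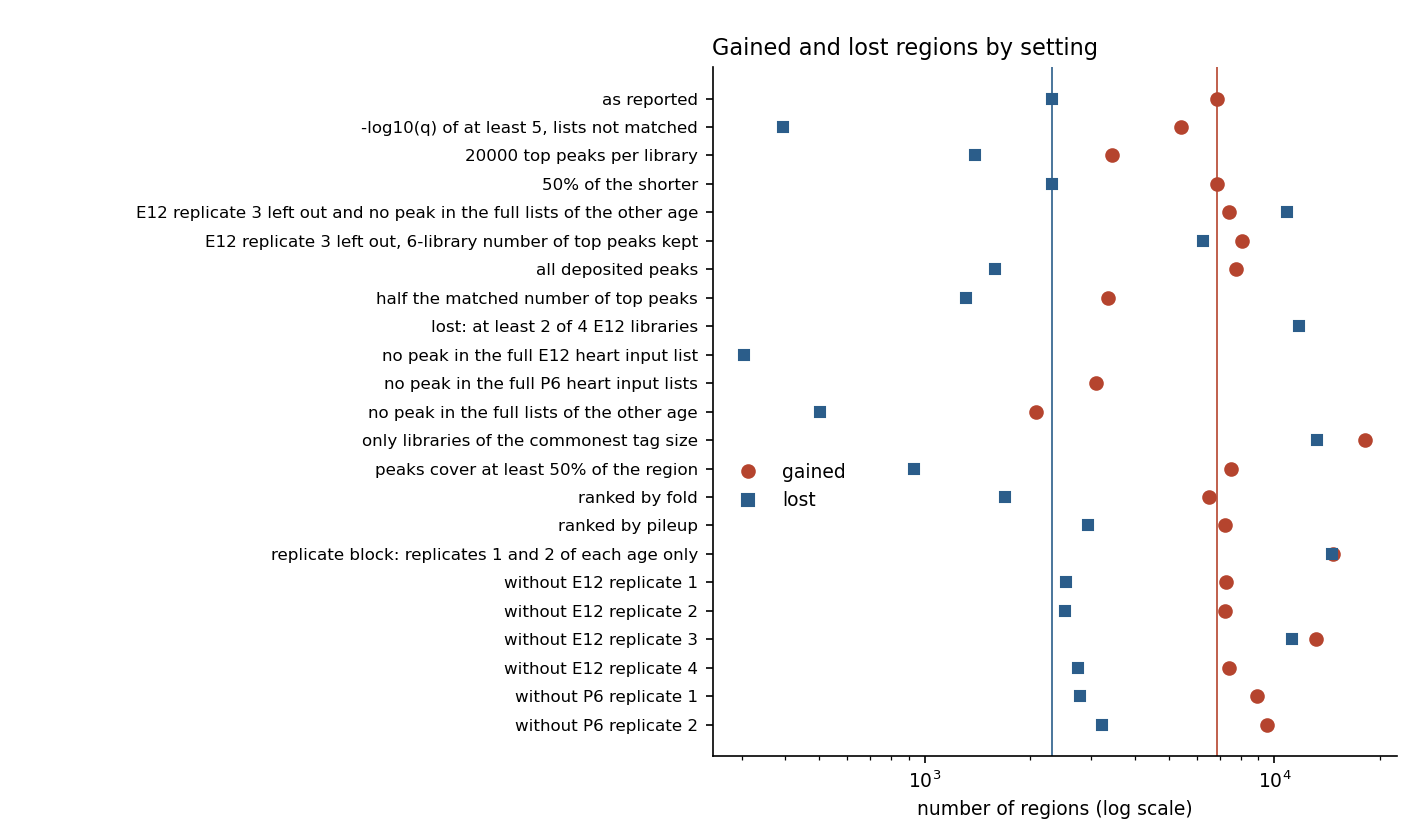
Number of gained (circles) and lost (squares) regions on a log axis for each way of building the sets (rows), with vertical lines at the reported 6870 and 2308. Lost regions range from 304 to 14650 and gained regions from 2078 to 18194 across the settings.

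Most regions of both sets lay away from gene starts. A region of the whole union was within 1 kb of a protein-coding gene start in 18.5% of cases, and a region with a top peak in all 6 libraries in 51.7%. Of the gained regions 292 were, or 4.25% (95% Wilson interval 3.80 to 4.75%), and of the lost regions 398, or 17.2% (15.8 to 18.8%). The intervals cover counting error only. The 5-library shares were 3.47% for gained, 5.77% for lost and 13.85% for all regions. The median distance to the nearest start was 28.8 kb for gained and 31.4 kb for lost regions, against 25.35 kb over all regions and 0.75 kb for regions with a top peak in all 6 libraries. Gained regions were short, with a median of 536.5 bp, while lost regions had 787 bp, all regions 624 bp and those with a top peak in all 6 1068 bp. With 5 libraries the medians were 427 bp for gained, 557 bp for lost and 544 bp for all regions. Merging peaks of more libraries can lengthen a region, and the median top peak was 701 to 711 bp in E12 replicates 1, 2 and 4 against 584 and 622.5 bp at P6. Over whole top lists the share of peaks at gene starts was 28.6% and 29.1% at P6 and 30.6%, 30.0%, 30.2% and 28.1% at E12. The mean difference of −0.908 percentage points was within the spread between libraries (exact permutation test over 15 labellings, 2-sided p = 0.4, adjusted p = 0.4).

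At gene starts, 165 genes (0.763% of 21631 protein-coding genes) had a top peak in both P6 libraries and no E12 library, and 364 genes (1.68%) in all 4 E12 and no P6 library. The 5-library numbers were 228 and 537, of which 66 and 70 were shared with the first reading. The genes with a start in the top lists at P6 only in both readings included Fabp4, the fatty acid binding protein of capillary endothelium, Ly6a and Ly6c1, surface proteins of mature endothelial cells, and Slc4a1, the anion exchanger of red cells. The strand was not at hand for Fabp4 and Ly6a, so both ends of each counted as starts and the peak may lie at either end. They also included Myh6 and Myl2, a myosin heavy chain and a light chain of cardiomyocytes. Tnni3, Ttn, Nppa, Nkx2-5 and Mybpc3, all cardiomyocyte genes, were added with 5 libraries, beside Gata4, Btnl9, Gja5, Kdm6b and Col15a1. Heyl and Pdgfb were among them with 6 libraries and not with 5. The part of cardiomyocyte chromatin in these starts was not tested. With 6 libraries, starts in the top lists at E12 only included Adgrg6, an adhesion receptor used here as an endocardial marker, Gata5, a GATA factor of the endocardium, and Igf2bp1, a fetal RNA-binding protein. The cardiomyocyte gene Ryr2 was among them too. None of these 4 was among them with 5 libraries. Absence here is from the top list: the region at the Gata5 start (chr2:180333807-180335092) had a −log10 q of 5.69 and 5.22 in the P6 libraries, below their top lists, and 12.44, 13.47, 10.15 and 27.85 at E12. In the 5-library comparison the listed genes with an E12-only start instead included Dlk1, an imprinted fetal gene, Rgs5, Upk1b and Reln.

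The gained regions with the strongest peaks are described next, ranked by the lower of both P6 values. The strongest lay 21.1 kb from the start of Noto (chr6:85402437-85403059), a homeobox gene, with a −log10 q of 41.91 and 44.28 at P6. E12 replicates 1, 2 and 4 had 7.08, 6.31 and 9.89 there and replicate 3 had no peak. A region inside Gnat3 (chr5:17990492-17991098), 28.2 kb from the start of that taste-receptor G protein gene, had 40.95 and 50.38 at P6 and no peak in any E12 list. The fatty acid transporter gene Cd36 lies next to Gnat3 in the genome and had 5 gained regions within 50 kb. The Gnat3 region lies outside that window and is not among the 5. A region 20.2 kb from Lrrc55 (chr2:85178107-85178944) had 40.59 and 40.57 at P6 and no E12 peak. A region 4.55 kb inside Pak4 (chr7:28593080-28594195), which encodes a kinase of the cytoskeleton, had 39.39 and 39.99 at P6 and between 2.69 and 3.28 in 3 E12 lists. The region in Lnx1 (chr5:74679355-74680230), a ubiquitin ligase gene, had 33.87 and 34.58 at P6 and none at E12. The others of the top 12 were nearest to Arhgap5, Dnah2, P2ry6, Lrrc8d, Ankrd28, Icos and Mcf2l. The regions of Noto, Dnah2, P2ry6, Lrrc8d and Mcf2l, 5 of the 12, were not gained in the 5-library comparison.

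All 12 had a peak of some rank in both adult heart endothelial lists and in both P6 whole-heart inputs. Only 2 of the 12 had one in the E12 input, and 9 had one in all 7 E12 endothelial lists of brain and trunk. The whole gained set differed from these 12: 46.54% of it had a peak in both adult heart lists, 43.51% in both P6 inputs, 35.47% in the E12 input and 37.41% in all 7 E12 lists. Over all regions these shares were 33.26%, 55.23%, 65.74% and 58.43%. With 5 libraries 12 of the top 12 had one in both adult heart lists, 11 in both P6 inputs, 1 in the E12 input and 10 in all 7 E12 lists. The shares of that gained set were 21.7%, 36.44%, 30.29% and 19.48%, each below the 22.35%, 48.91%, 63.86% and 45.47% over all regions. In the 5-library comparison the strongest gained region lay at the start of Dipk2b (chrX:18461100-18461821; 44.85 and 46.13 at P6, no peak or 3.46 to 4.95 at E12). A region 30.2 kb from Cldn5 (chr16:18746302-18747096), the main tight-junction claudin of endothelium, had 33.31 and 36.65 at P6 and no E12 peak. The 5-library regions were chosen after their values were seen. That Cldn5 region had a peak in both adult heart endothelial lists and both P6 inputs. It had none in the 7 E12 lists of brain and trunk or in the 12 P6 and 10 adult endothelial lists of other organs.

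The strongest lost region, ranked by the lowest of the 4 E12 values, lay 195.7 kb from Steap1 (chr5:5944718-5945353), which encodes a membrane protein of the STEAP family. It had a −log10 q of 27.77, 21.09, 17.23 and 47.82 in E12 replicates 1 to 4 and no peak at P6. A region 1.88 kb from the start of Nrn1 (chr13:36735835-36736877), which encodes neuritin, had 14.97, 19.18, 11.46 and 22.59 at E12 and no peak at P6. A region inside the glypican gene Gpc5 (chr14:115436304-115437082) had 36.16, 36.84, 10.75 and 59.23 at E12 and 3.69 and 4.88 at P6. A region 55.0 kb from Nts (chr10:102435094-102435805), the neurotensin gene, had 22.96, 26.48, 12.22 and 22.45 at E12 and 3.70 and 5.33 at P6. In each of these regions replicate 3 had the lowest E12 value, and all E12 values were above the P6 values. The others of the top 12 were nearest to Ccdc171, Agbl4, Thrb, Cyp4f18, Dnah7b, Nol4, Insm2 and Arf5. All 12 had a peak in all 7 E12 lists of brain and trunk and in the E12 input, 10 had one in both P6 inputs, and 9 had none in either adult heart endothelial list. Over all regions 58.43%, 65.74%, 55.23% and 58.58% did so in the same order, and over the whole lost set 78.9%, 86.83%, 57.02% and 91.72%, so the share in both P6 inputs was near that of all regions. Of these 12 only the regions of Steap1 and Nrn1 were lost in the 5-library comparison too.

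The strongest lost regions of the 5-library comparison were all different from these, with no peak of any rank at P6. The P6 lists were used almost whole there, so this absence follows largely from the rule. The strongest lay in Mrps5 (chr2:127603316-127604099), a mitochondrial ribosomal protein gene, with 38.90, 39.19, 3.55 and 45.68 in E12 replicates 1 to 4. A region 180.5 kb from Dlk1 (chr12:109271884-109272708) had 35.85, 38.73, 4.86 and 50.79. Replicate 3 was far below the other E12 libraries in both. Of these 12 regions, 7 had a peak in all 7 E12 lists of brain and trunk and 3 in none of them, 7 had one in the E12 input, 4 in both P6 inputs and 0 in either adult heart endothelial list. Over all regions of that comparison 45.47% were in all 7 E12 lists, 24.49% in none of them, 63.86% in the E12 input and 48.91% in both P6 inputs, and nothing particular to these 12 is read from the counts. In neither adult heart list were 70.76% of all regions.

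Gained regions also gathered around particular genes, counted by nearest start. Genes chosen in this way must tend to hold more P6 peaks, and 14.9% of all genes had more peaks within 50 kb in each P6 than in every E12 library, so their peak numbers are a description. Ablim1, which encodes an actin-binding LIM protein, was nearest to 14 gained regions and to no lost region. Within 50 kb of Ablim1 the P6 libraries had 28 and 33 top peaks and the E12 libraries 13, 17, 9 and 6. Stard13, which encodes a GTPase-activating protein, had 12 gained regions, with 33 and 28 top peaks at P6 and 12, 13, 13 and 12 at E12. Ets1, an ETS factor of endothelial cells, had 11, with 21 and 22 peaks at P6 and 11, 13, 11 and 14 at E12. Cdh13, which encodes T-cadherin, the receptor of adiponectin, had 10 gained regions (24 in the 5-library comparison). Its P6 libraries had 26 and 24 peaks against 11, 9, 13 and 10 at E12. Tcf7l2, a transcription factor of Wnt signalling, had 10 (20), with 14 and 11 peaks against 6, 6, 4 and 3. Zfp608, Adgrl2, Magi1 and Zfp36l1 had 11 each and Ablim3 had 10. The ages overlapped around Zfp608, with 9 and 12 peaks at P6 and 12, 12, 7 and 9 at E12, and around Zfp36l1, with 6 and 6 against 5, 6, 6 and 4.

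In the smaller lost set of the 6-library comparison at most 5 regions were nearest to any gene. With 5 libraries, where both sets are of like size, the most were 18 for Auts2, which also had 17 gained regions, 16 each for Gpc5 and Nrg1, against 24 gained regions for Cdh13. Fgf12, which encodes an intracellular fibroblast growth factor homologue, had 5, with 1 and 1 top peaks at P6 and 6, 5, 8 and 6 at E12. Tiam1, a Rac exchange factor gene, had 4, or 13 without E12 replicate 3, with 12 and 14 peaks at P6 and 23, 18, 19 and 26 at E12. Ank2, the ankyrin-B gene, had 4, with 3 and 4 peaks against 13, 11, 10 and 14. Adgrg6 had 4, with 1 and 2 peaks against 5, 6, 5 and 7. Rspo3, which encodes an R-spondin that strengthens Wnt signalling, had 4, with 1 and 1 peaks against 2, 2, 3 and 3. Genes chosen in this way must tend to hold fewer P6 peaks, as 9.8% of all genes did. Ptprd, Zranb2, Pappa, Brinp1 and Tnik also had 4 each.

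Genes of 22 lists were then scored by whether a gained or lost region lay within 50 kb of the gene body. Of all protein-coding genes 32.8% had a gained region there and 14% a lost one, or 48.5% and 42.7% in the 5-library comparison. Long genes have more room for a region, and the general endothelial genes had a median length of 39.5 kb against 17.3 kb over all genes. They also had more peaks at E12 already. The mean within 50 kb was 8.17, 8.22, 8.06 and 7.61 in E12 replicates 1 to 4, against 3.98, 4.02, 3.69 and 3.66 over all genes. The shares over all genes allow for neither length nor peak number. The lists were chosen with earlier results of these data known, so the tallies below are a description. Of 14 lists of endothelial genes and processes, 13 had a share above 32.8% for gained regions, the exception being cardiac and regional transcription factors with 4 of 14. The cushion and valve list and the cell cycle list, at 33.33%, were close to that share. For lost regions 9 of the 14 were above 14%. Of the 8 lists of other cell types, 5 were above the share for gained and 3 for lost regions. With 5 libraries 13 of 14 endothelial lists were above for gained and 10 for lost, and 4 and 6 of the 8 others. The 14 include lists of processes such as the cell cycle, imprinted growth and glucocorticoid response, and the 8 include the lymphatic endothelial list. Gained regions were also counted without those seen in the P6 whole-heart inputs. Inputs hold every cell type of the heart, endothelium included: at 72069 top peaks 12 and 12 of the 18 general endothelial starts and 11 and 11 of the 12 cardiomyocyte starts had a peak in the P6 inputs. At 38942 top peaks these numbers were 4 and 4 of 18 and 11 and 11 of 12. The limit can therefore remove regions of any heart cell type, but it can remove more cardiomyocyte than endothelial ones. A fall of the cardiomyocyte list under it is thus partly built in. The part of each type was not tested. Of the gained regions 3083 had no peak of any rank in either P6 input, and 18.8% of all genes had such a region within 50 kb. Restricted in this way, 10 of the 14 endothelial lists and 0 of the 8 others were above the share over all genes, and the cardiomyocyte list went from 6 of 12 genes to 0 of 12. The 4 endothelial lists that were not above it were cushion and valve (1 of 15), cardiac transcription factors (1 of 14), flow responsive (1 of 8) and cell cycle (1 of 12). With 5 libraries 11 of the 14 and 2 of the 8 others (pericyte and smooth muscle, 4 of 9, and epicardial, 3 of 6) were above the share over all genes, then 34.3%.

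A stricter count took gained regions with no peak of any rank in an E12 list. With 6 libraries 13.3% of all genes had such a region within 50 kb. It was near 7 of 18 general endothelial, 9 of 17 heart capillary, 5 of 13 basement membrane and 6 of 12 MHC class I and interferon genes. It was near 0 of 15 Notch and arterial genes and 0 of 12 cell cycle genes, so each gained region near these overlapped a peak below the top list in at least 1 E12 library. With 5 libraries the Notch and arterial list had 10 of 15 and the cell cycle list 6 of 12, against 35.7% of all genes. The cardiomyocyte list had 4 of 12 with 6 libraries and 10 of 12 with 5.

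**Figure D3:**
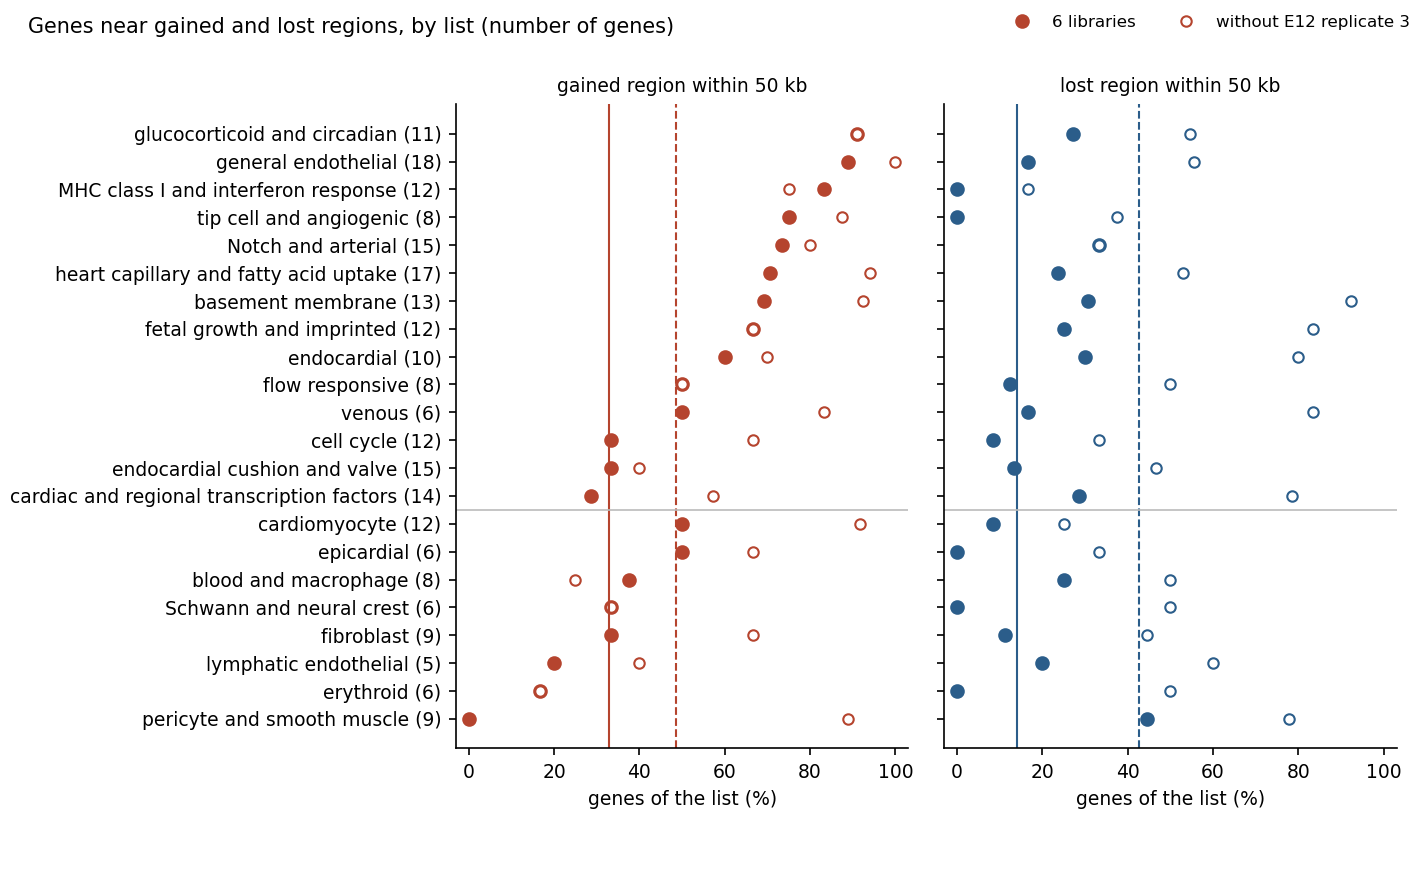
Share of the genes of each list with a gained (left) or lost (right) region within 50 kb, with 6 libraries (filled) and without E12 replicate 3 (open). Vertical lines are the shares over all protein-coding genes (32.8% and 48.5% for gained, 14% and 42.7% for lost), and lists below the horizontal line mark other cell types.

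General endothelial genes, which mark endothelium of any organ, had a gained region near 16 of 18 genes and a lost one near 3. With regions absent from the P6 inputs it was 14 of 18, and without E12 replicate 3 it was 18 of 18 for gained and 10 of 18 for lost. Counting 5-library regions with no peak of any rank at the other age, 16 of 18 had a gained one, against 35.7% of all genes, and 9 of 18 a lost one, against 41.6%. For lost regions this limit removes few, since the P6 lists were used almost whole. Around Kdr, the main VEGF receptor, the P6 libraries had 15 and 16 top peaks and the E12 libraries 7, 7, 7 and 8, with 7 gained regions. Around Pecam1, an adhesion protein of endothelial junctions, they had 13 and 16 against 8, 8, 6 and 4, also with 7. Around Cldn5 they had 10 and 5 against 3, 3, 4 and 3. Around Egfl7, which encodes a secreted endothelial factor, they had 15 and 14 against 10, 9, 8 and 5. Cdh5, the VE-cadherin gene, had 12 and 11 against 8, 9, 11 and 8, so P6 replicate 2 equalled E12 replicate 3. In all, 10 of 18 genes had more peaks in each P6 library than in every E12 library, where 14.9% of all genes did, and none had fewer, where 9.8% of all genes did.

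The heart capillary and fatty acid uptake list had gained regions near 12 of 17 genes and lost ones near 4. It was 7 of 17 with regions absent from the P6 inputs, and 16 of 17 gained and 9 of 17 lost without E12 replicate 3. Fabp4 had 7 gained regions and 1 lost, with 14 and 11 top peaks at P6 and 4, 4, 4 and 6 at E12. Cd36 had 5, with 10 and 11 against 3, 4, 4 and 5, although all 5 also had a peak in a P6 input. Car4, a carbonic anhydrase of capillary surfaces, had 6, with 7 and 7 against 2, 2, 1 and 1. Pparg, the nuclear receptor that controls fatty acid handling, had 5 gained and 1 lost, with 12 and 11 against 6, 6, 4 and 5, and none of the 5 was in a P6 input. Btnl9, a marker of capillary endothelium, had 6 and 8 peaks against 3, 2, 2 and 2, and Rgcc, another, had 6 and 7 against 2, 2, 4 and 2. The ages did not overlap for any of these 6. Lpl, the lipoprotein lipase gene, had no gained and 1 lost region, with 4 and 3 peaks against 5, 4, 3 and 3. For 11 of the 17 genes each P6 library had more peaks than every E12 library, against 14.9% of all genes. Fewer peaks were seen for 0 of the 17, against 9.8% of all genes.

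**Figure D4:**
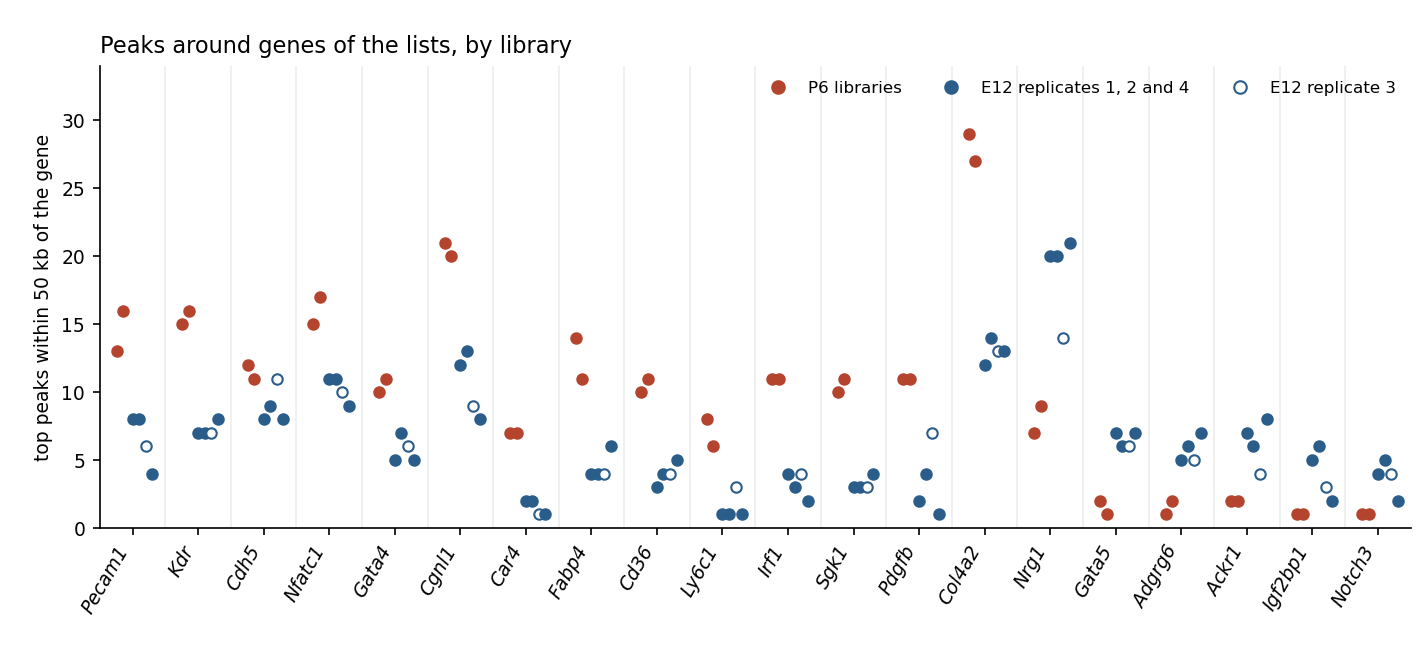
Top peaks within 50 kb of 20 genes of the lists (horizontal axis), 1 point per library, with P6 in red, E12 replicates 1, 2 and 4 in filled blue and replicate 3 open. The genes from Nrg1 to the right have fewer peaks in both P6 libraries than in every E12 library, and for all genes to the left except Cdh5 both P6 points lie above all E12 points.

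The endocardial list was divided. A gained region lay near 6 of 10 genes and a lost one near 3, or 7 and 8 without E12 replicate 3. Nfatc1, the endocardial transcription factor needed for valves, had 4 gained regions, with 15 and 17 top peaks at P6 and 11, 11, 10 and 9 at E12. Cgnl1, a junction protein gene, had 7, with 21 and 20 against 12, 13, 9 and 8. Gata4, a cardiac GATA factor, had 3, with 10 and 11 against 5, 7, 6 and 5, and all 3 also had a peak in a P6 input. In the other direction, Nrg1, the neuregulin that endocardium sends to the trabecular muscle, had 3 lost regions, with 7 and 9 peaks at P6 and 20, 20, 14 and 21 at E12. With 5 libraries it had 12 lost regions and 1 gained. Adgrg6 had 4 lost and no gained region. Hapln1, which encodes a link protein of cardiac jelly, had 3 and 2 peaks at P6 against 4, 4, 4 and 6. Fewer peaks in both P6 than in every E12 library were seen for 4 of the 10 genes, against 9.8% of all genes, and more for 4 of the 10, against 14.9%.

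The lists of endocardial cushion and valve genes and of cardiac transcription factors stood near or below the share over all genes for gained regions with 6 libraries. The cushion and valve list had 5 of 15 gained and 2 of 15 lost, or 6 and 7 without E12 replicate 3. Tgfb2, a ligand that drives cushion cells to leave the endocardium, had 4 gained regions and 11 and 9 peaks against 4, 5, 6 and 4. Tgfbr3, which encodes a co-receptor for that ligand, had 5, with 15 and 12 against 9, 8, 8 and 8. Heyl, a target of Notch, had 3, with 6 and 7 against 5, 5, 4 and 4. In all, 4 of the 15 genes had more peaks in each P6 than in every E12 library, against 14.9% of all genes, and 3 had fewer, against 9.8%. Bmp2, a cushion-inducing ligand, had 1 lost region and 1 and 1 peaks against 3, 2, 3 and 3. The transcription factor list had 4 of 14 gained and 4 of 14 lost. Without E12 replicate 3 it had 8 and 11 of 14, above the 48.5% and 42.7% of all genes. Gata5 had 1 gained and 3 lost regions, with 2 and 1 peaks at P6 against 7, 6, 6 and 7 at E12. Meis1, a homeobox factor of the embryonic heart, had 2 lost, with 6 and 8 peaks against 10, 11, 11 and 11. Foxp1 had 3 gained and 2 lost, and its libraries overlapped (19 and 24 against 25, 22, 18 and 20).

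Notch and arterial genes had a gained region near 11 of 15 and a lost one near 5 (12 and 5 without E12 replicate 3). It was 9 of 15 with regions absent from the P6 inputs. Notch1, the receptor that sets arterial identity, had 3 gained regions, with 16 and 15 peaks at P6 and 9, 9, 8 and 7 at E12. Jag1, a Notch ligand, had 1 gained and 2 lost, with 5 and 5 against 4, 5, 6 and 6. Venous genes had 3 of 6 gained and 1 of 6 lost, or 5 and 5 without E12 replicate 3. Nrp2, a co-receptor of VEGF-C, had 4 gained, with 12 and 11 against 9, 8, 6 and 8. Ackr1, the chemokine receptor of venules, had 1 lost, with 2 and 2 against 7, 6, 4 and 8. Tip cell and angiogenic genes had 6 of 8 gained and 0 of 8 lost, or 7 and 3 without E12 replicate 3. Pdgfb, the ligand with which sprouting vessels recruit pericytes, had 7 gained regions, with 11 and 11 peaks against 2, 4, 7 and 1. Flow-responsive genes had 4 of 8 gained and 1 of 8 lost, or 4 and 4 without E12 replicate 3. In that list Klf2, a factor induced by shear stress, had 3 gained, with 10 and 10 peaks against 6, 8, 5 and 4. Nos3 had 0 gained and 2 lost regions, with 11 and 13 peaks against 15, 13, 13 and 12. More peaks in each P6 than in every E12 library were seen for 2 of the 8 genes (25%, against 14.9% of all genes), and fewer for 0.

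Basement membrane genes had 9 of 13 gained and 4 of 13 lost, and 6 of 13 with regions absent from the P6 inputs. Both counts were 12 of 13 without E12 replicate 3. Col4a2 and Col4a1 share one promoter region and encode the type IV collagen chains of the vessel wall, so their counts are not independent. Col4a2 had 11 gained and 2 lost regions, with 29 and 27 peaks at P6 and 12, 14, 13 and 13 at E12. Hspg2, the perlecan gene, had 5 gained, with 15 and 14 against 9, 7, 6 and 5. The list of MHC class I and interferon response genes had 10 of 12 gained and 0 of 12 lost, or 9 and 2 without E12 replicate 3. Irf1, an interferon-induced factor, had 6 gained regions, with 11 and 11 peaks against 4, 3, 4 and 2. Ly6c1 had 4, with 8 and 6 against 1, 1, 3 and 1. Tap1 and Psmb8, which load and cut peptides for MHC class I, are neighbours and share regions. Tap1 had 9 and 10 peaks at P6 and 4, 3, 2 and 2 at E12.

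Glucocorticoid and circadian genes had 10 of 11 gained and 3 of 11 lost, or 10 and 6 without E12 replicate 3. With regions absent from the P6 inputs it was 4 of 11 for gained. Sgk1, a kinase induced by glucocorticoids, had 6 gained regions, with 10 and 11 peaks at P6 and 3, 3, 3 and 4 at E12. Fkbp5, a chaperone induced by the same hormones, had 2, with 8 and 8 against 6, 2, 3 and 2. Fetal growth and imprinted genes had 8 of 12 gained and 3 of 12 lost, or 8 and 10 without E12 replicate 3. Igf2, H19, its imprinted noncoding neighbour, and Mest, an imprinted hydrolase gene, had 3 gained regions each and no lost one. In the 5-library comparison these genes had 3, 3 and 1 gained and 0, 2 and 1 lost. H19 had 7 and 7 peaks at P6 and 4, 5, 8 and 7 at E12. Mest had 9 and 8 peaks at P6 and 4, 5, 7 and 2 at E12, and Igf2 5 and 5 against 4, 3, 4 and 1. In the other direction, Lin28b, which encodes a blocker of let-7 maturation, had 1 lost region, with 1 and 0 peaks at P6 and 5, 3, 3 and 4 at E12. Igf2bp1 had 1 lost, with 1 and 1 against 5, 6, 3 and 2. Cell cycle genes had 4 of 12 gained and 1 of 12 lost, or 8 and 4 without E12 replicate 3. Among these Top2a, a topoisomerase of dividing cells, had 4 gained regions, with 11 and 12 peaks against 8, 8, 7 and 7. Another gene was the nearest for each of those 4 regions. In this list 3 of 12 genes had more peaks in each P6 than in every E12 library (25%, against 14.9% of all genes), and 0 had fewer.

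Lists of other heart cells were scored the same way. Cardiomyocyte genes had 6 of 12 gained and 1 of 12 lost with 6 libraries, and 11 of 12 and 3 of 12 without E12 replicate 3. None of the gained regions near them was absent from the P6 inputs in either comparison (0 of 12 genes), against 18.8% of all genes with 6 libraries and 34.3% with 5. Myh6 had 3 gained regions, with 8 and 6 peaks at P6 and 5, 5, 6 and 4 at E12. Pericyte and smooth muscle genes had 0 of 9 gained and 4 of 9 lost. Pdgfrb, the pericyte receptor for PDGF-B, had 2 and 1 peaks at P6 against 5, 5, 2 and 3, and Notch3 had 1 and 1 against 4, 5, 4 and 2. The pericyte counts were 8 of 9 gained and 7 of 9 lost without E12 replicate 3. Fibroblast genes had 3 of 9 gained and 1 lost, epicardial genes 3 of 6 and 0, blood and macrophage genes 3 of 8 and 2, and erythroid genes 1 of 6 and 0. Lymphatic endothelial genes had 1 of 5 gained and 1 lost, and Schwann and neural crest genes 2 of 6 and 0. With 5 libraries these 6 lists had 6 and 4, 4 and 2, 2 and 4, 1 and 3, 2 and 3, and 2 and 3, in the same order. The part of cardiomyocyte or pericyte chromatin in the gained and lost sets was not tested.

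Libraries that took no part in choosing the regions were then examined at equal list length. Lost regions were found far more often in E12 endothelium of brain and trunk than in P6 endothelium of organs other than heart. Trunk is not an organ, and the sample titles do not say whether the heart was removed from it. Of the 2308 lost regions, 44.97% ± 3.77 (SD, n = 7) had a top peak in the E12 libraries of brain and trunk and 19.2% ± 5.29 (SD, n = 12) in the P6 libraries of brain, retina, lung, liver and kidney. At E12 the brain libraries had 40.73 to 41.55% and the trunk libraries 46.62 to 50.17%. The lowest E12 library had 40.7% and the highest P6 library 26.7%, so the ages did not overlap. The difference of 25.8 percentage points had a 2-sided exact permutation p of 1.985e-05, the smallest that 50388 labellings allow (adjusted p = 0.0001191 over 6 tests). The labellings treat all libraries as exchangeable, although they are replicates within organs and only brain was sampled at both ages. This p therefore does not measure the spread between organs. Within brain alone the exact permutation p for lost regions was 0.1. Over all 72361 regions P6 and E12 had 30.9% and 34.3%, a difference of −3.39 points for P6 minus E12 (exact permutation p = 0.002203). Without E12 replicate 3 the lost shares were 9.35% and 4.01%, again with no overlap and the same p by exact permutation. All regions of that comparison had 23.15% at E12 and 21.4% at P6. The lost share at E12 was thus above that of all regions with 6 libraries and below it with 5.

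For gained regions the ages were less separate. P6 libraries of other organs had a top peak in 16.9% ± 7.93 (SD, n = 12) of them and E12 libraries in 10.3% ± 0.854 (SD, n = 7). The difference of 6.66 points had an exact permutation p of 0.04324 but an adjusted p of 0.06487, which misses 0.05. With 5 libraries the shares were 8.185% and 5.19%, a difference of 2.996 points (exact permutation p = 0.03431), where all regions had 21.4% and 23.15%. The P6 values depended on the organ. Lung had 27.6% and 25.9%, kidney 27.35% and 21.4%, and liver 19.6% and 17.7%. Brain had 17.7%, 10.8% and 15.1%, and retina 7.07%, 6.29% and 6.48%, below every E12 library. The organs sampled differ between the ages, apart from brain. Within brain, with 3 libraries at each age, the gained share was 14.5% at P6 and 10.4% at E12 and the lost share 22.6% and 41.1%. All regions had 30.2% at P6 and 33.2% at E12, a difference of −3.02 points. Each of the 3 had an exact permutation p of 0.1 over 20 labellings, the smallest that 3 against 3 allows 2-sided.

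In the adult, gained regions had a top peak more often in heart endothelium than in that of other organs. The adult heart libraries had a top peak in 31.0% and 32.3% of gained regions, and the 10 libraries of other organs in 2.23 to 17.4% (mean 10.47% ± 4.60, SD). The difference of 21.2 points had an exact permutation p of 0.01515, the smallest that 66 labellings allow (adjusted p = 0.0303). Lost regions were rarer in adult heart, with 1.26% and 0.867%, than in the other organs, with 3.86 to 11.01%. That difference of −6.64 points also had an exact permutation p of 0.01515 (adjusted p = 0.0303). Each organ gave 2 libraries, which could lie close together, as with 11.85% and 11.56% of gained regions in liver. The labellings treat all libraries as exchangeable, so neither p measures the spread between organs. The regions themselves were chosen on heart libraries. Over all regions the difference was 2.85 points (exact permutation p = 0.04545). Without E12 replicate 3 the gained shares were 13.2% in adult heart and 5.04% elsewhere (exact permutation p = 0.01515), and the lost shares 0.09345% and 1.71% (exact permutation p = 0.0303). Over all regions of that comparison they were 16.9% and 15.5%, so the gained share in adult heart was below that of all regions there and above it with 6 libraries (31.7% against 25.65%). In the full deposited lists, 46.5% of gained regions had a peak in both adult heart libraries and 91.7% of lost regions in neither, where all regions had 33.3% and 58.6%. With 5 libraries the gained share of 21.7% was close to the 22.35% of all regions, and 99.1% of lost regions were in neither, against 70.8%.

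**Figure D5:**
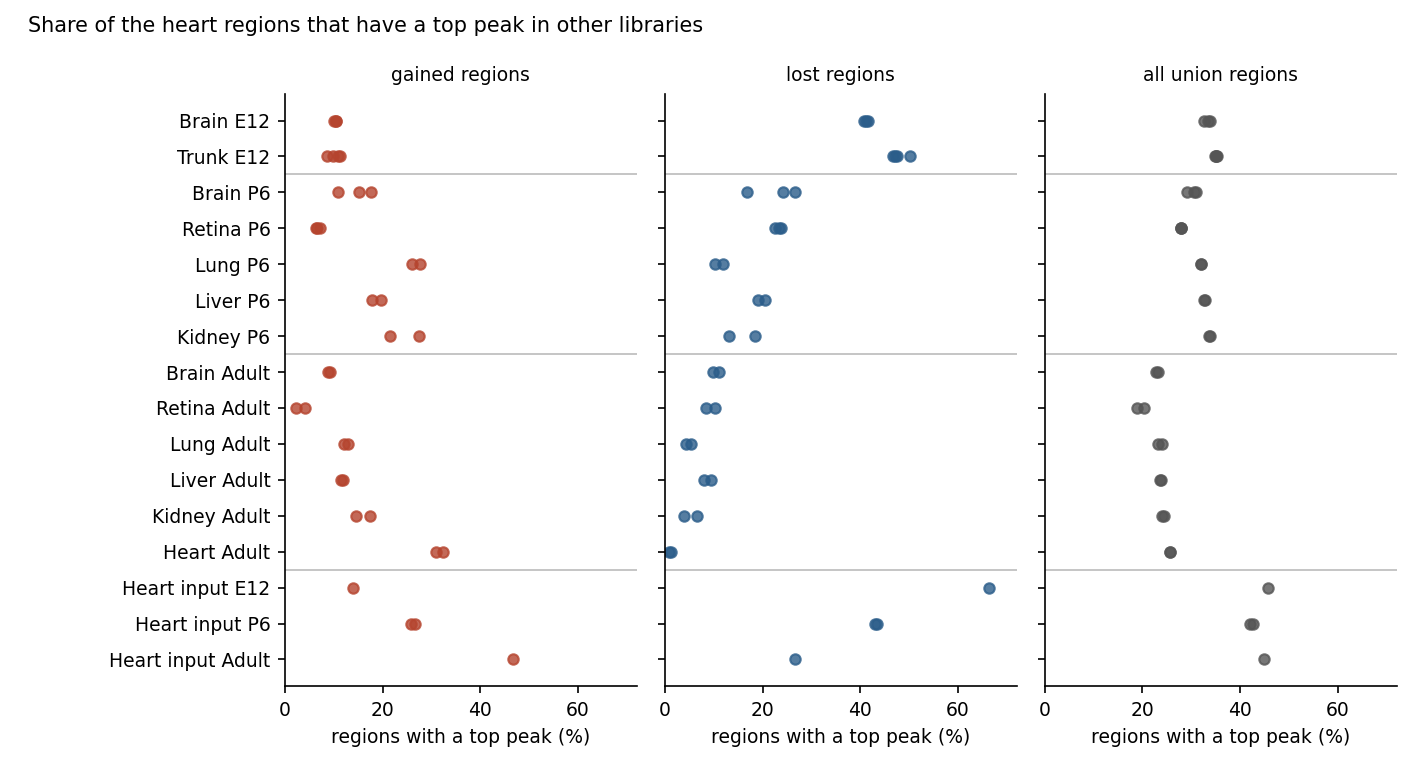
Share of gained, lost and all union regions of the 6-library comparison (3 panels, horizontal axis in percent) with a top peak in each library outside the comparison, 1 point per library, by organ and age. Adult heart endothelium stands highest of the adult endothelial groups for gained regions and lowest for lost ones, and E12 brain and trunk stand above all P6 organs for lost regions.

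The whole-heart inputs followed the same order by age. Gained regions had a top peak in 13.9% of cases in the E12 input, 25.7% and 26.7% in the P6 inputs and 46.6% in the adult input. Lost regions had 66.3%, 43.3% and 43.1%, and 26.7%. All regions had between 41.92% and 45.65% in these 4 inputs. With 1 input library at E12 and 1 in the adult no test was made. Inputs contain endothelial nuclei too, and how much of these shares comes from them was not tested.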

How the data were processed

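Peaks were called by the authors with MACS 2.1.2 in each library separately, without a control library, in broad mode, with 1 tag kept per position, per the file headers. Each deposited peak carries the authors' pileup signal (a mean over its length, unscaled between libraries), their fold over nearby background and their −log10 q-value. The submitters' processing notes name Bowtie2, Picard, SAMtools 1.13 and genome build mm10. They give no order of steps.

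From these lists, peaks on chromosomes 1 to 19 and X were ranked by −log10 q, with ties ordered by fold and then by pileup, and the top peaks were merged where they shared at least 1 bp. Peak lists hold no counts per region, so no model across regions was fitted. Comparisons used the exact permutation test over libraries, 2-sided, with Benjamini-Hochberg adjustment over 6 tests, at a threshold of 0.05. Libraries outside the comparison were cut to 27136 (E12 brain and trunk, P6 other organs), 19437 (adult) or 57488 (input) top peaks. Replicate numbers were not used to pair the libraries. The correlation of deviations between same-numbered P6 and E12 libraries was −0.00572 and 0.00716. With 2 P6 libraries the deviations of each mirror those of the other, so these values cannot show whether numbers mark a shared batch.

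Gene positions came from RefSeq GRCm38.p6 for 21631 protein-coding genes. The planned start was the 5′ end of each gene, but the strand was at hand for 17274 genes, and for the other 4357 both gene ends were taken as starts. Distances are from a region's centre to the nearest start.

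Named are the 12 strongest gained and lost regions, the 10 genes nearest to most of them, and members of the lists with such a region within 50 kb. List members with a start in the top lists at 1 age only, and 5-library regions and genes, were named after their values were seen. Members and lists were chosen with earlier results of these data known. Scripts ran in Python 3.11.15 (numpy 2.4.6, pandas 2.3.3, scipy 1.17.1, matplotlib 3.10.9) and were tested on simulated peak lists. Alternatives were other list lengths, rankings and overlaps, and leaving out each library. No sequence of a region away from a gene start was printed, since no genome was used here.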

Additional observations from a re-analysis of the deposited data

Results flagged for a closer look

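In 34 groups of 4 libraries, the highest or lowest E12 library was compared with the nearest of the others, and 11 stood apart by Dixon's criterion. Chance alone gives about 1 in 20. E12 replicate 3 had a duplicate share of 83.46%, where the next library had 38.46%, and its top peaks covered 17.83 Mb, where the next had 30.4 Mb. The other 9 are numbers of list genes with a top peak at the start, where ties among the other 3 libraries are enough to set 1 library apart. E12 replicate 3 had 12 cushion and valve genes (the nearest library 9), 9 cardiac transcription factors (12), 9 glucocorticoid and circadian genes (10), 1 cardiomyocyte gene (2) and 1 erythroid gene (2). E12 replicate 4 had 6 flow-responsive genes (7), 9 basement membrane genes (12), 6 MHC class I and interferon genes (10) and 4 lymphatic genes (3).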

How the results depend on the processing

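Numbers of regions moved most. Gained regions (6870) came to 3441 with 20000 top peaks per list, 3343 with the matched number divided by 2, 3083 with no peak in the P6 inputs, 2078 with no peak in any E12 list and 18194 with libraries of 75 bp tags only, which leaves 1 P6 library and E12 replicates 1, 2 and 4. Leaving out 1 library at a time gave 7241 to 13161. Lost regions (2308) came to 1392, 1317, 304 (no peak in the E12 input), 503 and 13254 in the same order. They came to 394 with unmatched peaks of −log10 q of at least 5, 11761 with any 2 of 4 E12 libraries and 933 with peaks covering 50% of a region. Leaving out 1 library gave 2517 to 11236. The highest of each is without E12 replicate 3, which also lengthened the lists from 38942 to 72069 peaks. At the 6-library list length there were 8091 gained and 6243 lost regions without it. At the longer length 10834 lost ones had no peak in any P6 list, and those lists were then used almost whole. For the replicate block, only replicates 1 and 2 of each age were used, with 14679 gained and 14650 lost, and the numbers were not taken to pair the samples. The 6.66-point excess of gained regions at P6 in other organs lost p under 0.05 with 20000 peaks (5.07, exact permutation p = 0.2938), with the number divided by 2 (4.14, p = 0.2373) and ranked by fold (3.73, p = 0.158). Leaving out 1 library gave 2.996 to 6.918, and without E12 replicate 4 it was 6.40 (exact permutation p = 0.05343). The gene-start difference turned to 0.365 with all deposited peaks and 0.236 ranked by fold, and was −0.720 (exact permutation p = 0.4) with only genes of known strand. The lost excess at E12 and both adult comparisons kept their direction and side of 0.05 in the alternatives run. The Jaccard difference stayed above 0, from 0.0699 to 0.224, in a design that cannot reach 0.05. Added after seeing the data were the limits to regions with no input peak, 75 bp tags only, 50% cover and genes of known strand. Without E12 replicate 3, the gene-list counts, the 6-library list length and the limit to regions with no peak at the other age were also added then. An overlap of 50% of the shorter feature gives the same sets by construction. The depth behind a single peak is not in the lists, so the error of one region's −log10 q is unknown.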

Other observations

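In the 5-library comparison, 20 of the 11236 lost regions (0.178%) had a peak in all 4 E12 heart endothelial lists, replicate 3 included, and in none of the 35 other lists examined, among them the E12 heart input. Of these 20, the regions nearest to Mndal (chr1:173860244-173861230), Ifi211 (chr1:173899642-173900389) and Ifi205 (chr1:174015232-174015943) lie close together on chromosome 1, in a cluster of interferon-inducible genes. The Mndal region had a −log10 q of 35.31, 31.14, 6.57 and 29.45 in E12 replicates 1 to 4, the Ifi211 region 29.01, 28.68, 5.11 and 31.54, and the Ifi205 region 30.19, 35.26, 4.58 and 46.88. These 3 stood among the 12 strongest lost regions of that comparison. Near-identical gene copies in this cluster can share reads. In the other direction, 602 of the 13161 gained regions (4.57%) had a peak in both P6 heart lists and in none of the 35 others or of the E12 heart lists. A peak in 2 lists was enough there, against 4 for lost regions, so the counts are not alike. The share over all regions was not counted. These regions were chosen after their values were seen.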
